A study of Homo sapiens with 50 samples.

Results

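The 28 genes described here encode enzymes that make cholesterol and fatty acids, together with the proteins that switch those enzymes on and off. In the deposited annotation on GRCh37 they lie on several chromosomes, such as HMGCS1 (ENSG00000112972) on chromosome 5 from 43289497 to 43313614, MSMO1 (ENSG00000052802) on chromosome 4 from 166248775 to 166264312, and SC5D (ENSG00000109929) on chromosome 11 from 121163162 to 121179403. They were taken by symbol from the 57905 genes of the deposited tables, and each symbol had 1 row. The set holds 7 genes of the mevalonate and isoprenoid steps, 11 of the path from squalene to cholesterol, 6 that regulate the pathway or carry sterol, and 4 of fatty acid synthesis and desaturation. Values were followed over 25 groups of H1 cells, an established line of human embryonic stem cells, labelled wild type. Undifferentiated cells stood for day 0, and differentiating cultures were sampled on days 3, 5, 7 and 11. Their cell type markers, given below, differed between treatments. On each later day there were 6 treatments. Besides the control for differentiation, 1 received the acid HCl and 1 the base NaHCO3, which is sodium bicarbonate. The other 3 received IWP2, which blocks the secretion of WNT proteins, given alone, together with NaHCO3, or together with both NaHCO3 and 2-DG. The last of these, 2-deoxyglucose, resembles glucose and inhibits glycolysis, and cultures with all 3 agents are called 2-DG cultures below. Every group had 2 libraries, 50 in all. The labels give no dose, no time of addition and no pH reading, and no group received another acid, base or salt, so pH and other effects of HCl and NaHCO3 cannot be told apart. Nothing says that the 2 libraries of a group came from separate cultures, so p-values measure the spread between libraries, which may be technical.

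Cells build cholesterol from acetyl-CoA through mevalonate, the isoprenoids and squalene, and the steps after lanosterol remodel the ring system into cholesterol. Transcription of these enzymes is driven by the SREBP factors, which SCAP carries from the endoplasmic reticulum to the Golgi for cleavage when sterol is low, and which the INSIG proteins hold back when sterol is high. SREBF2 is best known for cholesterol genes and SREBF1 for fatty acid genes, and INSIG1 and STARD4 are themselves SREBP targets. Markers listed here under heart muscle and under liver and foregut were expressed in these cultures, which does not show that liver cells formed. Heart muscle and liver handle sterol differently: the liver is a major site of cholesterol and lipoprotein production.

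Levels are deposited FPKM, which are per length, so that levels of different genes may be set side by side. Log2 fold changes come from counts compared with edgeR, and a gene is called, and said to have risen or fallen, when its Benjamini-Hochberg adjusted p was under 0.05 and it changed at least 2-fold, a log2 fold change of 1 in either direction. A second, looser rule counts genes with an adjusted p under 0.05 whatever their size of change, and of these "higher" and "lower" are written. Where no gene was called, counts of the 28 at an unadjusted p under 0.05 are given as well. The share of all genes at that cutoff is not given, and percentages printed nearby belong to the other rules. No trend is read from the unadjusted counts. Libraries of days 3 and 5 held 14794134 to 22796553 counts, and those of days 0, 7 and 11 held 14090004 to 20445875. The 2 sets of days were deposited as separate tables, so each test stays within one of them, and no test was made of levels between them. The common coefficient of variation between libraries of a group, estimated by edgeR, was 0.119 on days 3 and 5. It was 0.067 on days 0, 7 and 11. A given change passes a rule more easily where this spread is smaller, so numbers passing are not directly comparable between the 2 sets. All 28 genes passed the filter on low values in both tables. Counts of the 28 under another fit, or without a library, are given without the share of all genes in that fit. A shift in such a count may therefore not be particular to these genes. The 2 libraries with 2-DG of day 3 lay apart from each other, with FASN at 53.49 and 95.74 FPKM and SCD at 99.07 and 179.66.

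Promoter sequence is shown for some of the genes discussed below, all of them with a match before the start. The letters CCAAT, the site of the factor NF-Y that works beside SREBP, were found in most of the promoters read. Windows from 250 bases before to 50 bases after the start were read from RefSeq on GRCh38.p14 for the 24 of 28 genes that matched. The stretches run 5′ to 3′ along the gene, and capitals mark CCAAT or its reverse complement ATTGG, and matches to TCACNCCAC or TCACNCCAT, 2 forms of the sterol regulatory element.
HMGCS1, chr5:43313498-43313577, minus strand: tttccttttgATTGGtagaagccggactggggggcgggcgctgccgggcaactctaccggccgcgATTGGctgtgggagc
MSMO1, chr4:165327474-165327649, plus strand: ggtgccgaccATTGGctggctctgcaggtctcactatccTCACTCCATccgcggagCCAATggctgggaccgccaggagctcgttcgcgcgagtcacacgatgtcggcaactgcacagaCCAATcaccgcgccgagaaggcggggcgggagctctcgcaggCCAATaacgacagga
INSIG1, chr7:155297698-155297722, plus strand: ccggcctcccATTGGttgcggccgc
STARD4, chr5:111512651-111512706, minus strand: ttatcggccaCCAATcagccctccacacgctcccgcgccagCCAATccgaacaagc
LSS, chr21:46228910-46228934, minus strand: cggcgctctgATTGGttgcgtgggc
SC5D, chr11:121292705-121292729, plus strand: ccggtcgctgATTGGctggccgctc
SREBF2, chr22:41832962-41833013, plus strand: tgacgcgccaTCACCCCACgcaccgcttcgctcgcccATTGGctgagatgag

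CCAAT on either strand was found in 18 of the 24 genes (75.0%), against 39.7% of the 27305 genes with a window of the same length. In FADS2 it lay only after the start. SREBF1, CYP51A1 and FADS1, which are also discussed below, held no match to any of the motifs searched. MSMO1, which removes methyl groups from lanosterol-derived sterols, had 4 copies in the stretch shown and a TCACNCCAT match on the gene's own strand, a sequence in 0.78% of all genes searched on both strands. SREBF2 held TCACNCCAC (1.39% of all genes). Each of these 2 forms was found in only 1 of the 24 genes (4.17%), and HMGCS1, INSIG1, STARD4, LSS and SC5D held neither. The E-box CACGTG was found in INSIG1, LSS, SC5D and SCAP, 4 of 24 genes, against 8.78% of all genes. These matches are letters in a window and say nothing of whether a factor binds there.

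The 28 genes covered a wide range of levels. SCD, which puts the first double bond into saturated fatty acids, had the highest group mean, 245 ± 9.99 FPKM (SD, n = 2) in undifferentiated cells. SREBF1 had the lowest, 0.795 ± 0.00707 FPKM in IWP2 on day 7. Undifferentiated cells held the highest mean of 10 of the 28 genes and NaHCO3 of day 3 held that of 4. The lowest mean fell in IWP2 with NaHCO3 and 2-DG of day 11 for 8 genes and in the control of day 5 for 7. The share of all genes with their highest or lowest mean in these groups was not computed. These counts are therefore not read as particular to the 28. Between highest and lowest group the ratio ran from 1.76 for PMVK, phosphomevalonate kinase, to 14.7 for SREBF1, with MSMO1 at 14.6 and FASN, fatty acid synthase, at 13.5. For SREBF1, MSMO1 and FASN these 2 groups lay in different tables. All such rankings take in both tables, between which levels were not tested. Along the order of the 25 group means of HMGCS1, which makes HMG-CoA at the entry to the pathway, 12 of 24 neighbouring pairs did not overlap in their libraries, and for PMVK 1 of 24.

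**Figure D1:**
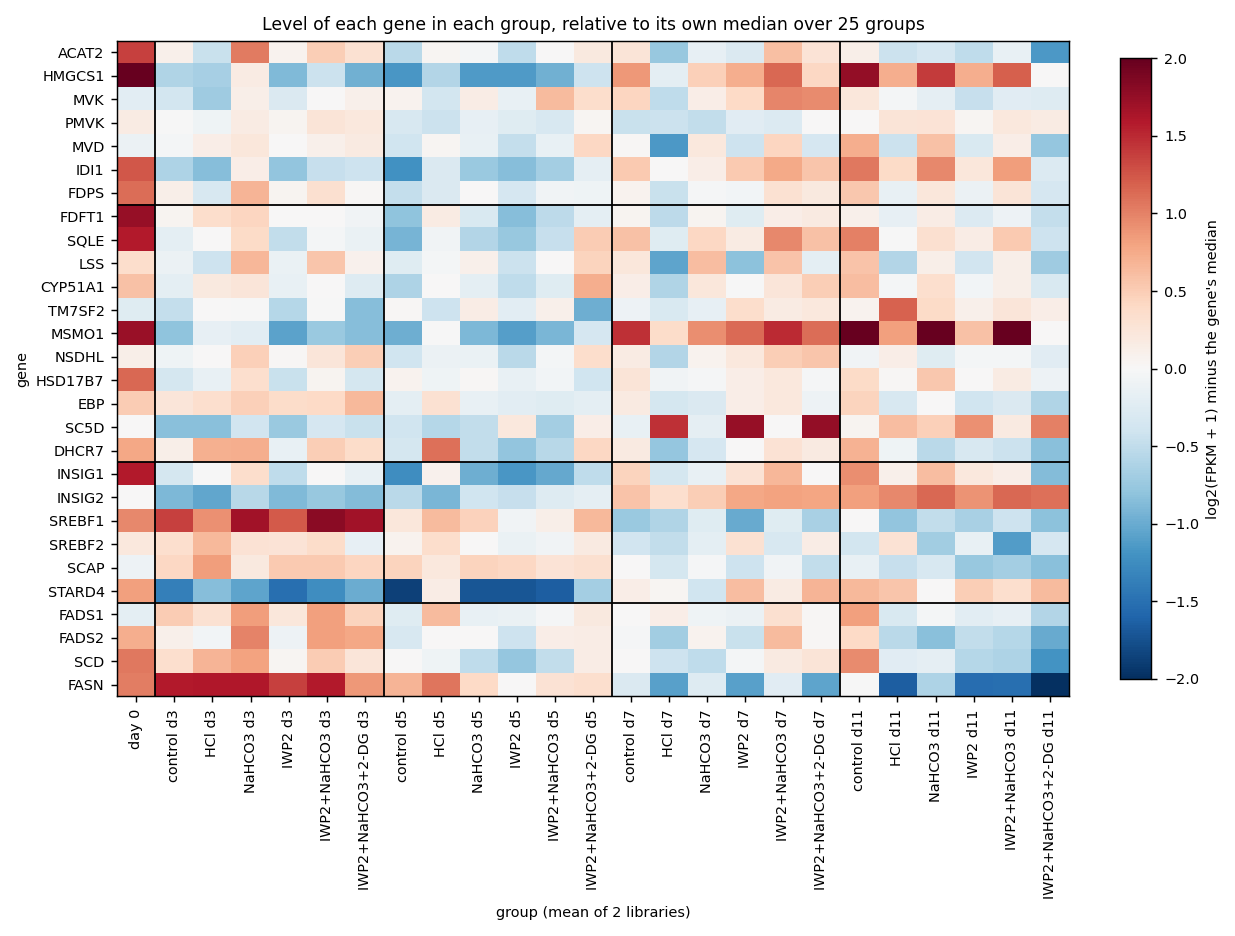
Mean level of the 28 genes (rows, ordered by step of the pathway) in the 25 groups (columns, 2 libraries each), coloured by log2(FPKM + 1) minus the gene's own median over the groups; colours end at 2 in size. Most rows are red at day 0 and blue in the control and IWP2 of day 5, while SC5D is red on day 7 in HCl, IWP2 and 2-DG cultures; days 3 and 5 come from another table than days 0, 7 and 11, and differences across them were not tested.

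In control cultures most of the genes were lower on day 7 than before differentiation and then recovered in part. On day 7 against undifferentiated cells 10 of the 28 fell, where 15.6% of all genes fell and 19.3% rose. Under the looser rule 21 were lower (34.4% of all genes) and 2 higher (33.2%), and the median log2 fold change of the 28 was -0.80 against 0.00 over all genes tested. By role, 5 of 7 mevalonate genes, 9 of 11 of the squalene to cholesterol genes, 4 of 6 regulators and 3 of 4 fatty acid genes were lower.

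HMGCS1 stood at 210.34 and 221.54 FPKM in undifferentiated cells and at 73.12 and 76.53 in the control of day 7 (log2 fold change -1.70 ± 0.09 SE, adjusted p = 2.12e-16). FDFT1, squalene synthase, stood at 131.97 and 136.52 FPKM before differentiation and at 39.08 and 42.67 on day 7 (-1.88 ± 0.08, adjusted p = 3.51e-19). SREBF1 went from 6.31 and 5.76 FPKM to 1.03 and 1.28 (-2.55 ± 0.15, adjusted p = 2.50e-15). In each of these 3 genes the undifferentiated libraries were the higher. INSIG1, which retains the SREBP complex in the endoplasmic reticulum, went from 33.87 and 36.58 FPKM to 14.87 and 15.99 (-1.36 ± 0.10, adjusted p = 2.37e-12). FASN was at 88.81 and 79.07 FPKM in undifferentiated cells and at 33.77 and 32.70 on day 7 (-1.50 ± 0.11, adjusted p = 8.98e-11). The other genes that fell were ACAT2, HSD17B7, FDPS, SCD and SQLE, with log2 fold changes from -1.31 to -1.20. Markers of pluripotent cells summed to 1831.15 and 1845.48 FPKM at day 0 and to 186.63 and 182.41 in the control of day 7, and their part in these differences was not tested. In bulk samples fewer cells of a type and less RNA per cell cannot be told apart, here and below.

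From day 7 to day 11 of the control the direction turned. Under the looser rule 21 of the 28 were higher (19.7% of all genes) and none lower (15.6%), and the median log2 fold change was 0.51 against 0.01 over all genes. MSMO1, SREBF1 and SCD rose, 3 of 28 where 7.64% of all genes rose and 2.76% fell. MSMO1 was at 72.89 and 77.86 FPKM on day 7 and at 161.85 and 186.71 on day 11 (1.28 ± 0.12, adjusted p = 3.02e-08). SCD went from 116.47 and 120.36 FPKM to 218.47 and 234.55 (1.00 ± 0.10, adjusted p = 9.95e-09), a change at the threshold of size, which it missed without control day 7 replicate 1 (0.98), without control day 11 replicate 2 (0.93) and without the filter on low values (0.97). Against undifferentiated cells FDFT1, ACAT2, SREBF1, FASN and HSD17B7 still fell on day 11, 5 of 28 where 16.6% of all genes fell and 22.8% rose. Under the looser rule 15 were lower (34.3%) and 6 higher (36.3%). FDFT1 was at 41.07 and 43.43 FPKM there (-1.77 ± 0.08, adjusted p = 1.26e-18). The value of HSD17B7, a ketosteroid reductase, was -1.02 ± 0.14, and it missed the threshold of size without control day 11 replicate 1 (-0.83), without day 0 replicate 2 (-0.97) and without the filter (-0.98).

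Between days 3 and 5 of the control SREBF1 fell, from 8.03 and 8.62 to 3.06 and 3.42 FPKM (-1.31 ± 0.12, adjusted p = 2.35e-08), 1 of 28 where 7.74% of all genes fell and 10.4% rose. Under the looser rule 14 were lower (18.1%) and 4 higher (20.4%), and the median was -0.40 against 0.02 over all genes. The number called was 2 with DESeq2, with DESeq2 size factors, without the filter on low values, without both 2-DG libraries of day 3 and without control day 3 replicate 2, and 3 without control day 5 replicate 2.

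**Figure D2:**
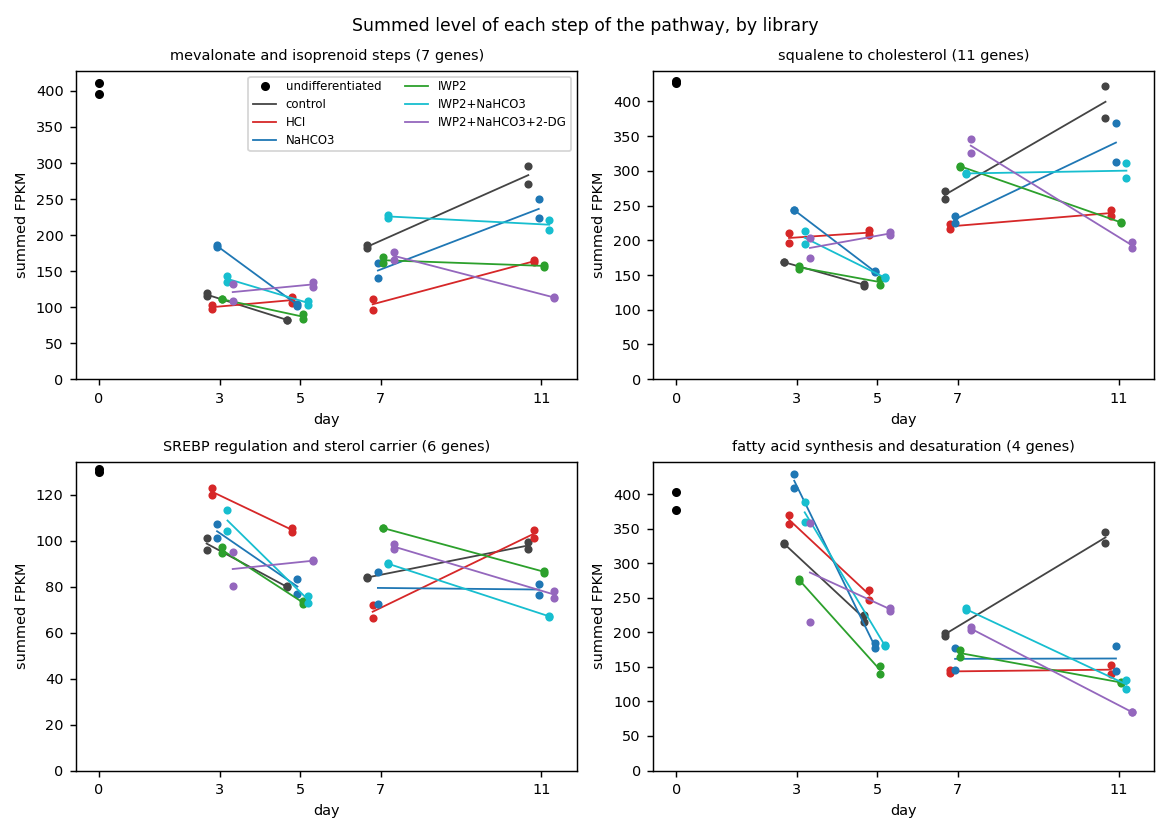
Summed FPKM of the genes of each step (panels) against the day of culture, with 1 point per library and a line through the mean of 2 libraries of each treatment; lines do not join days 5 and 7, which lie in different tables. On day 11 the control points lie above those of HCl, IWP2 and IWP2 with NaHCO3 and 2-DG in the mevalonate, squalene to cholesterol and fatty acid panels.

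HCl was set against control on each day, a comparison of added acid with the control for differentiation. With HCl 18 of the 28 genes were higher on day 5 by the looser rule, and 20 were lower on day 7 and on day 11. On day 3, 0 of 28 genes were called with edgeR or with DESeq2 (5.94% of all genes rose and 4.67% fell by edgeR), while 11 were higher and 5 lower at an unadjusted p under 0.05. At an adjusted p under 0.05, 11 were higher (15.8%) and 3 lower (14.2%), a total of 14 that went to 6 in a fit of that day alone and to between 5 and 8 when any 1 library was left out. Of the 11, 6 belonged to the squalene to cholesterol steps and 4 were regulators or carriers. SREBF2 was at 69.49 and 69.96 FPKM with HCl and at 58.49 and 53.49 in control (0.40 ± 0.12, adjusted p = 0.015), and SCAP at 28.50 and 27.54 against 20.88 and 20.78 (0.51 ± 0.09, adjusted p = 0.00033).

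On day 5, 6 of the 28 rose with HCl, where 9.84% of all genes rose and 10.2% fell. Counting any size of change, 18 were higher (20.7%) and 1 lower (21.2%), and the median was 0.47 against -0.02 over all genes. STARD4, a soluble carrier of sterol between membranes, was at 11.00 and 12.65 FPKM with HCl and at 1.68 and 2.67 in control (2.49 ± 0.19, adjusted p = 1.44e-09). INSIG1 was at 11.32 and 12.46 FPKM against 3.79 and 4.42 (1.57 ± 0.13, adjusted p = 4.62e-09). DHCR7, which catalyses the last reduction to cholesterol, was at 37.06 and 38.36 FPKM against 13.64 and 12.70 (1.56 ± 0.10, adjusted p = 2.17e-10). STARD4 overlaps STARD4-AS1 and DHCR7 overlaps RP11-660L16.2, each on the opposite strand. For STARD4, INSIG1 and DHCR7 every library with HCl lay above the libraries of the other 5 treatments of day 5. FDFT1 was at 43.00 and 45.28 FPKM with HCl and at 22.00 and 22.22 in control (1.04 ± 0.14, adjusted p = 3.84e-06). MSMO1 and IDI1, which isomerises the isoprenoid unit, had log2 fold changes of 1.07 ± 0.16 and 1.04 ± 0.14. Both missed the threshold of size without control day 5 replicate 1 (0.96 and 0.99) and without HCl day 5 replicate 2 (0.99 and 0.97). Primitive streak markers summed to 63.61 and 64.18 FPKM with HCl and to 7.73 and 7.40 in control on that day, liver and foregut markers to 5.27 and 4.08 against 276.66 and 332.87, and fibroblast and matrix markers to 45.57 and 44.87 against 733.38 and 847.86. None of these markers was at 0 in both libraries of either group, and their part in these rises was not tested.

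The effect of HCl on STARD4 was 1.76 ± 0.26 higher on day 5 than on day 3 on the log2 scale (interaction test, adjusted p = 2.56e-05; 8.35% of all genes had a difference called higher and 8.09% lower), and that on INSIG1 1.11 ± 0.18 higher (adjusted p = 6.83e-05). STARD4 on day 3 was at 5.69 and 5.21 FPKM with HCl and at 3.39 and 3.61 in control.

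On day 7, 6 of the 28 fell with HCl and 1 rose, where 7.96% of all genes fell and 6.36% rose. Whatever their size of change, 20 were lower (20% of all genes) and 2 higher (23.1%), and the median was -0.53 against 0.04 over all genes. By role 6 of 7 mevalonate genes and 9 of 11 squalene to cholesterol genes were lower. LSS, which closes squalene epoxide into lanosterol, was at 7.04 and 7.62 FPKM with HCl and at 18.96 and 19.59 in control (-1.34 ± 0.08, adjusted p = 1.13e-14). MVD, mevalonate diphosphate decarboxylase, was at 4.39 and 5.24 FPKM against 11.90 and 12.18 (-1.27 ± 0.08, adjusted p = 8.41e-14). Both enzymes stood lower in the HCl libraries than in any other library of day 7. MVK, mevalonate kinase, went from 5.99 and 6.02 FPKM in control to 2.34 and 2.96 (-1.13 ± 0.11, adjusted p = 4.26e-10). MSMO1 was at 32.28 and 36.79 FPKM with HCl against 72.89 and 77.86 (-1.07 ± 0.12, adjusted p = 3.00e-07). HMGCS1 was at 31.94 and 38.18 FPKM against 73.12 and 76.53 (-1.04 ± 0.09, adjusted p = 6.86e-11). The last 3 genes missed the threshold of size without HCl day 7 replicate 1, at -0.96, -0.98 and -0.91, and the number called then went from 7 to 3. ACAT2, a cytosolic thiolase, was the other gene that fell, and it too was not among the 3 called without that library, which were SC5D, LSS and MVD. MVK overlaps MMAB and ACAT2 overlaps TCP1 and SOD2 on opposite strands, and no source used here says if strand was used in counting.

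SC5D, the sterol desaturase, rose while these fell, at 94.70 and 87.21 FPKM with HCl and 29.58 and 28.78 in control (1.69 ± 0.09, adjusted p = 4.48e-15).

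On day 11, 7 of the 28 fell with HCl and 1 rose, where 12.7% of all genes fell and 8.37% rose. By the looser rule 20 were lower (27.4%) and 6 higher (25.3%), and the median was -0.67 against -0.01 over all genes. All 4 fatty acid genes were lower by that rule. MSMO1 was at 44.93 and 50.83 FPKM with HCl and at 161.85 and 186.71 in control (-1.78 ± 0.12, adjusted p = 7.82e-11). FASN was at 11.41 and 13.14 FPKM against 42.20 and 39.06 (-1.64 ± 0.12, adjusted p = 6.52e-11). SREBF1 was at 1.13 and 1.06 FPKM against 2.65 and 2.58 (-1.17 ± 0.16, adjusted p = 3.27e-07), and it overlaps RAI1 on the opposite strand. LSS, MVD, SCD and FADS1, the delta-5 desaturase, also fell, with log2 fold changes from -1.16 to -1.09. TM7SF2, a sterol reductase acting after lanosterol, rose against this direction, at 24.87 and 25.17 FPKM against 10.38 and 11.77 (1.26 ± 0.09, adjusted p = 1.91e-13). The libraries with HCl held the highest TM7SF2 of day 11, where the other 10 libraries ran from 10.34 to 14.7 FPKM, but the gene overlaps VPS51 on the same strand. The effect of HCl on TM7SF2 was 1.42 ± 0.13 higher on day 11 than on day 7 (adjusted p = 2.33e-10; 7.12% and 9.96% of all genes), and the difference for FADS1 was -1.27 ± 0.10 (adjusted p = 1.91e-11).

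**Figure D3:**
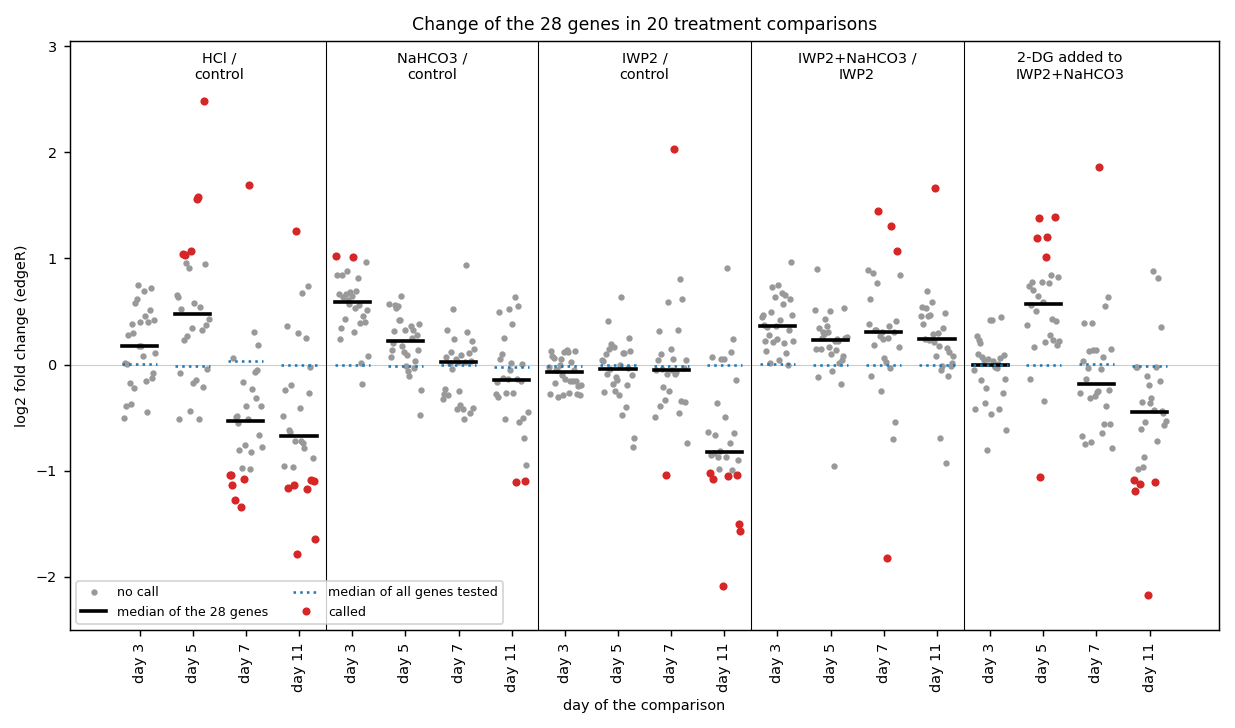
Log2 fold change by edgeR (y axis) of each of the 28 genes in 20 comparisons (x axis, 5 treatment contrasts by 4 days), with called genes in red, the median of the 28 as a black bar and the median of all genes tested as a dotted line. The black bar lies above the dotted line for HCl on day 5 (0.47) and NaHCO3 on day 3 (0.59), and below it for HCl (-0.67) and IWP2 (-0.82) on day 11.

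NaHCO3 against control uses the same control libraries as the comparisons with HCl. On day 3 most genes of the pathway were higher with NaHCO3, by less than 2-fold for all but ACAT2 and HSD17B7. Of the 28, 18 were higher by the looser rule, where 6.75% of all genes were higher and 5.55% lower, and the median was 0.59 against 0.00 over all genes. These were 5 of 7 mevalonate genes, 9 of 11 squalene to cholesterol genes, 2 of 6 regulators and 2 of 4 fatty acid genes. The 18 went to 11 in a fit of day 3 alone and to 10 without control day 3 replicate 2. ACAT2 and HSD17B7 rose, 2 of 28 where 2.29% of all genes rose and 1.80% fell. ACAT2 was at 37.91 and 35.69 FPKM with NaHCO3 and at 17.67 and 19.97 in control (1.02 ± 0.15, adjusted p = 6.76e-05), and its log2 fold change was 0.93 without control day 3 replicate 1 and 0.98 without NaHCO3 day 3 replicate 1, which leaves 0 of 28 called in each case. HSD17B7, described after its values were seen, was at 3.63 and 3.25 FPKM against 1.73 and 1.80 (1.02 ± 0.19, adjusted p = 0.00125). HMGCS1 was at 44.12 and 46.88 FPKM against 25.90 and 26.76 (0.84 ± 0.11, adjusted p = 4.0e-05), above every other library of day 3. The heart muscle markers summed to 40.20 and 35.49 FPKM with NaHCO3 on that day and to 11.77 and 12.37 in control, and the epithelium markers to 863.63 and 826.44 against 604.86 and 685.27, and their part was not tested.

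On day 5, 0 of 28 were called with NaHCO3 by edgeR or by DESeq2 (2.72% of all genes rose and 3.67% fell by edgeR), with 10 higher and 1 lower at an unadjusted p under 0.05. At an adjusted p under 0.05, 8 were higher (7.72%) and 1 lower (8.1%), a total of 9 that went to 14 in a fit of that day alone to 14 without both 2-DG libraries of day 3, to 5 without control day 5 replicate 1, and to 3 without control day 5 replicate 2 or NaHCO3 day 5 replicate 2. On day 7, 0 of 28 were called by edgeR or DESeq2 (5.08% and 5.15% of all genes), and 5 were higher and 10 lower at an unadjusted p under 0.05. Counting any size of change, 5 were higher (20.3%) and 9 lower (20%), and 1 gene was called without control day 7 replicate 2 or NaHCO3 day 7 replicate 2. On day 11 DHCR7 and FADS2 fell, 2 of 28 where 10.2% of all genes fell and 6.7% rose. Whatever their size of change, 12 were lower (26.5%) and 6 higher (26%), and the 4 fatty acid genes were all among the lower.

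FADS2, the delta-6 desaturase, was at 14.62 and 13.63 FPKM with NaHCO3 and at 33.44 and 35.92 in control on day 11 (-1.10 ± 0.09, adjusted p = 4.53e-12). It lay above both control libraries in 1 of 2 libraries on day 7, at 30.78 and 24.10 against 24.69 and 26.59, and the effect on day 11 differed from that on day 7 by -1.32 ± 0.12 (adjusted p = 1.25e-09; 4.75% and 6.66% of all genes). HSD17B7, which rose on day 3, had a difference between days 5 and 3 of -1.03 ± 0.27 (adjusted p = 0.0175; 2.28% and 3.71%). FADS2 overlaps FADS1 on the opposite strand and FEN1 on its own. DHCR7 was at 12.35 and 10.52 FPKM against 26.11 and 30.29 (-1.10 ± 0.11, adjusted p = 1.44e-08), and its log2 fold change was -0.97 without control day 11 replicate 2 and -0.997 without NaHCO3 day 11 replicate 2.

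IWP2 against control shares the same control libraries again. On day 11 most of the genes were lower by the looser rule. Few passed it on days 3 and 5, where the spread between libraries was larger and fewer of all genes passed too. On day 3, 0 of 28 were called by edgeR or DESeq2 (0.162% of all genes rose and 0.451% fell by edgeR), with 4 lower at an unadjusted p under 0.05. Under the looser rule none was higher (0.347%) or lower (0.821%) on that day with edgeR, 1 was lower with DESeq2, and 4 were lower without both 2-DG libraries of day 3. On day 5, 0 of 28 were called by edgeR or DESeq2 (1.93% and 4.84% of all genes), with 3 higher and 4 lower at an unadjusted p under 0.05. Those past the looser rule on day 5 were 1 higher (6.25%) and 4 lower (9.07%), and on day 7 6 higher (23.3%) and 9 lower (24.1%). On day 7 SC5D rose and LSS fell, where 8.50% of all genes rose and 7.95% fell. SC5D was at 115.32 and 107.20 FPKM with IWP2 against 29.58 and 28.78 (2.03 ± 0.09, adjusted p = 7.65e-17). LSS was at 8.31 and 9.21 FPKM against 18.96 and 19.59 (-1.04 ± 0.08, adjusted p = 2.27e-12), with a log2 fold change of -0.98 without IWP2 day 7 replicate 1.

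On day 11, 7 of the 28 fell with IWP2, where 8.68% of all genes fell and 6.24% rose. By the looser rule 21 were lower (23.3%) and 2 higher (22.1%), and the median was -0.82 against 0.00 over all genes. These were 6 of 7 mevalonate genes, 8 of 11 squalene to cholesterol genes, 3 of 6 regulators and all 4 fatty acid genes. MSMO1 was at 40.69 and 40.02 FPKM with IWP2 against 161.85 and 186.71 in control (-2.09 ± 0.12, adjusted p = 1.51e-11). FASN was at 13.38 and 13.55 FPKM against 42.20 and 39.06 (-1.57 ± 0.12, adjusted p = 2.49e-10). SCD was at 77.37 and 80.12 FPKM against 218.47 and 234.55 (-1.50 ± 0.10, adjusted p = 4.57e-12). MVD, DHCR7, FADS1 and HMGCS1 also fell, with log2 fold changes from -1.08 to -1.02, and that of DHCR7 was -0.91 without control day 11 replicate 2. The effect of IWP2 differed between days 7 and 11 for MSMO1, by -1.84 ± 0.17 (adjusted p = 1.39e-07; 1.27% and 4.52% of all genes), and for SCD, by -1.55 ± 0.14 (adjusted p = 1.35e-08). On day 7 SCD with IWP2, at 111.49 and 117.33 FPKM, overlapped the control at 116.47 and 120.36. Between days 5 and 3 the effect of IWP2 differed for 0 of 28 genes by edgeR or DESeq2 (1.51% and 3.01% of all genes), with 4 higher and 2 lower at an unadjusted p under 0.05.

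Adding NaHCO3 to IWP2 was compared with IWP2 alone. The median change of the 28 genes was above that of all genes on each day, by less than 2-fold. On day 3, 0 of 28 were called by edgeR or DESeq2 (1.9% of all genes rose and 1.29% fell by edgeR), with 17 higher at an unadjusted p under 0.05. At an adjusted p under 0.05, 10 were higher (4.99%) and none lower (3.59%), with a median of 0.36 against 0.01 over all genes, and the 10 went to 18 without both 2-DG libraries of day 3 and to 5 without IWP2 day 3 replicate 1 or IWP2 with NaHCO3 day 3 replicate 1. FADS2, named after its values were seen, had the highest log2 fold change of these on day 3, at 0.96 ± 0.09 (adjusted p = 1.12e-06), and 1 gene was called without IWP2 with NaHCO3 day 3 replicate 2. On day 5, 0 of 28 were called by edgeR or DESeq2 (3.64% and 2.17% of all genes), with 9 higher and 1 lower at an unadjusted p under 0.05, and 1 gene was called without IWP2 with NaHCO3 day 5 replicate 1. At an adjusted p under 0.05, 5 were higher (7.24%) and 1 lower (5.76%), a total of 6 that went to 14 in a fit of that day alone or without both 2-DG libraries of day 3, and to 3 without IWP2 day 5 replicate 1 or IWP2 with NaHCO3 day 5 replicate 2. The medians of the 28 were 0.23 on day 5, 0.31 on day 7 and 0.24 on day 11, and 0.00 over all genes on each of these days.

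On day 7, 3 of the 28 rose and 1 fell, where 8.40% of all genes rose and 8.29% fell. Counting any size of change, 16 were higher (24.6%) and 4 lower (24%). LSS was at 25.01 and 24.57 FPKM with NaHCO3 added and at 8.31 and 9.21 with IWP2 alone (1.45 ± 0.08, adjusted p = 1.40e-15). FADS2 was at 39.54 and 42.45 FPKM against 18.30 and 19.41 (1.07 ± 0.09, adjusted p = 6.50e-12). SREBF1, described after its values were seen since it lies under 5 FPKM, was at 2.18 and 1.9 FPKM against 0.79 and 0.80 (1.31 ± 0.17, adjusted p = 1.72e-07). SC5D fell, from 115.32 and 107.20 FPKM with IWP2 to 32.77 and 32.40 (-1.83 ± 0.09, adjusted p = 7.90e-16). On day 11 MSMO1 rose, 1 of 28 where 9.80% of all genes rose and 8.70% fell, from 40.69 and 40.02 FPKM to 131.40 and 112.60 (1.66 ± 0.12, adjusted p = 3.06e-10). Whatever their size of change, 12 were higher (26.1%) and 2 lower (23.9%) on that day, and 6 of 7 mevalonate genes were among the higher. The difference in the effect between days 11 and 7 was 1.35 ± 0.17 for MSMO1 (adjusted p = 4.74e-06; 4.21% and 3.37% of all genes). For SC5D the difference between days 5 and 3 was -1.37 ± 0.16 (adjusted p = 6.10e-06; 2.76% and 2.78%), and IWP2 with NaHCO3 held it at 20.48 and 19.32 FPKM on day 5 against 36.95 and 38.48 with IWP2 alone.

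2-DG was added to IWP2 with NaHCO3. On day 3, 0 of 28 were called by edgeR or DESeq2 (1.5% of all genes rose and 2.09% fell by edgeR), with 3 higher and 6 lower at an unadjusted p under 0.05. At an adjusted p under 0.05, 5 were lower (7.39%) and none higher (9.49%), a number that went to 0 in a fit of day 3 alone or without IWP2 with NaHCO3 day 3 replicate 1, and to 15, of which 8 were higher and 7 lower, without 2-DG day 3 replicate 2. Without 2-DG day 3 replicate 1, 1 gene was called. On day 5 STARD4, CYP51A1, DHCR7, SQLE and SC5D rose with 2-DG and TM7SF2 fell. Of the 28, 5 rose and 1 fell, where 7.04% of all genes rose and 9.42% fell, and by the looser rule 19 were higher (20% of all genes) and 1 lower (19.6%). The median was 0.57 against -0.01 over all genes.

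STARD4 was at 5.51 and 7.08 FPKM with 2-DG on day 5 and at 2.48 and 2.92 without it (1.39 ± 0.18, adjusted p = 4.08e-06). CYP51A1, the lanosterol demethylase, was at 5.53 and 6.33 FPKM against 2.40 and 2.73 (1.38 ± 0.16, adjusted p = 1.21e-06). SQLE, squalene epoxidase, was at 27.93 and 28.25 FPKM against 14.10 and 13.56 (1.19 ± 0.09, adjusted p = 2.29e-09). For SQLE and CYP51A1 the libraries with 2-DG were the highest of day 5, and for STARD4 they came after those with HCl. DHCR7 was at 22.08 and 23.78 FPKM against 11.13 and 11.28 (1.20 ± 0.10, adjusted p = 1.26e-08). SC5D was at 35.65 and 35.62 FPKM against 20.48 and 19.32 (1.01 ± 0.11, adjusted p = 4.47e-07), and it missed the threshold of size with DESeq2 (1.00), with DESeq2 size factors (1.00), in a fit of day 5 alone (0.99), without both 2-DG libraries of day 3 (0.98) and without IWP2 with NaHCO3 day 5 replicate 2 (0.96). TM7SF2 fell, from 11.73 and 10.76 FPKM to 4.91 and 4.69 (-1.06 ± 0.20, adjusted p = 0.000288). On day 5 the 7 heart muscle markers summed to 965.92 and 854.55 FPKM with 2-DG and to 506.10 and 526.41 without it, and the 5 epithelium markers to 2417.88 and 2340.64 against 1300.19 and 1299.41. The 8 liver and foregut markers summed to 31.79 and 24.85 FPKM against 257.66 and 260.83, and the 5 fibroblast and matrix markers to 404.87 and 460.12 against 1528.88 and 1613.23. No marker of these 4 lists was at 0 in both libraries of either group, and their part in the changes with 2-DG was not tested. The difference of the 2-DG effect between days 5 and 3 was 1.6 ± 0.24 for CYP51A1 (adjusted p = 4.77e-05; 5.65% and 5.81% of all genes) and 1.15 ± 0.13 for SQLE (adjusted p = 1.60e-06).

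On day 7 SC5D rose with 2-DG, 1 of 28 where 7.10% of all genes rose and 9.23% fell, at 108.49 and 115.19 FPKM against 32.77 and 32.40 (1.86 ± 0.09, adjusted p = 5.86e-16). By the looser rule 13 were lower (22.7%) and 5 higher (25%). On day 11, 5 of the 28 fell, where 11.8% of all genes fell and 9.32% rose. At an adjusted p under 0.05, 18 were lower (26.8%) and 3 higher (24.9%), and the median was -0.45 against -0.02 over all genes, and -0.98 for the 7 mevalonate genes. MSMO1 was at 26.45 and 26.92 FPKM with 2-DG and at 131.40 and 112.60 without it (-2.17 ± 0.12, adjusted p = 5.01e-12), and the effect differed from that on day 7 by -1.87 ± 0.17 (adjusted p = 5.32e-08; 4.55% and 5.08% of all genes). HMGCS1 was at 41.81 and 39.15 FPKM against 98.49 and 89.35 (-1.19 ± 0.09, adjusted p = 1.83e-12). IDI1 was at 16.76 and 17.24 FPKM against 39.40 and 35.84 (-1.13 ± 0.10, adjusted p = 2.50e-10), and INSIG1 at 5.45 and 5.85 against 11.87 and 12.80 (-1.11 ± 0.12, adjusted p = 5.19e-09). ACAT2 was at 7.14 and 7.43 FPKM against 15.57 and 15.89 (-1.09 ± 0.08, adjusted p = 1.27e-13). The 2-DG libraries of day 11 had lower HMGCS1, IDI1, INSIG1, ACAT2 and MSMO1 than every other library of that day.

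**Figure D4:**
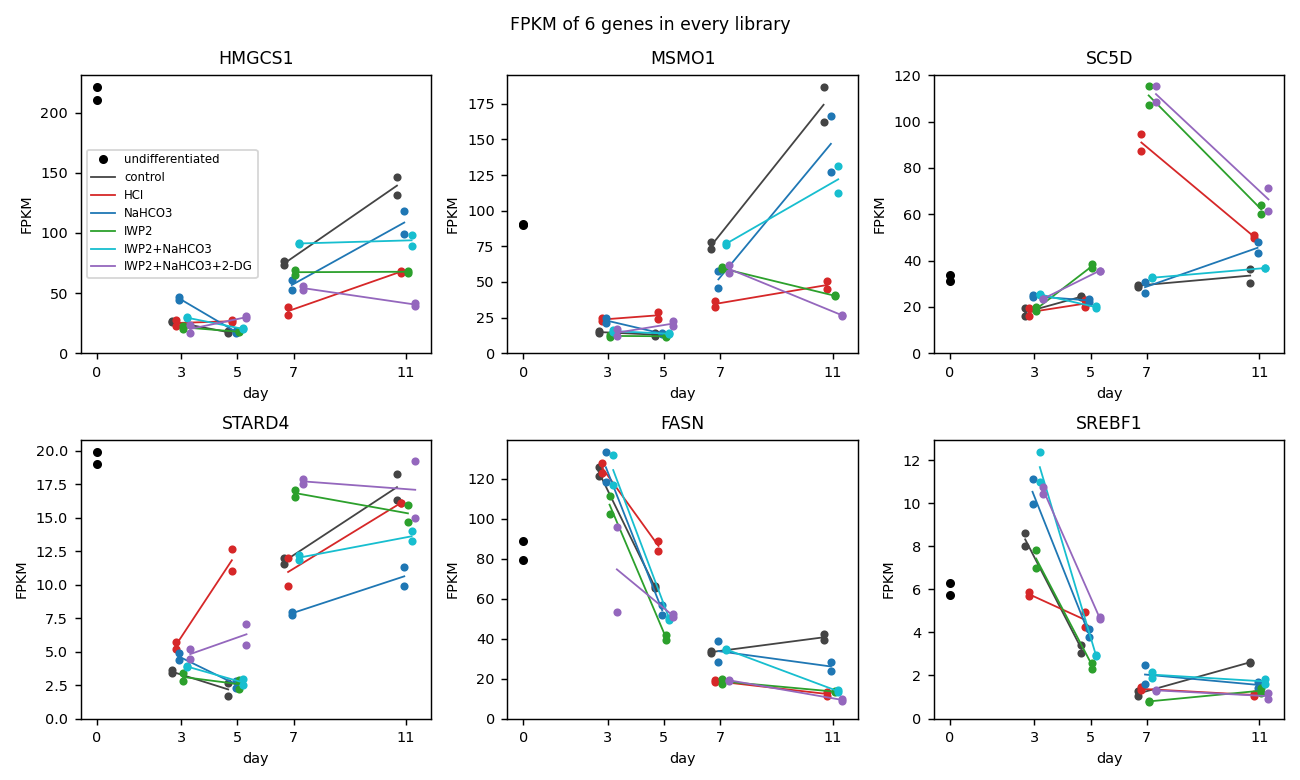
FPKM of 6 genes (panels) in every library against the day, with lines through the mean of 2 libraries of each treatment and no line between days 5 and 7, which lie in different tables. STARD4 with HCl on day 5 (11.00 and 12.65 FPKM) and SC5D with HCl, IWP2 and 2-DG on day 7 (87.21 to 115.32 FPKM) stand above the control libraries of the same day.

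HCl and NaHCO3 were also set against each other directly. On day 3, 6 of the 28 fell in HCl relative to NaHCO3, where 8.27% of all genes fell and 10.5% rose, and by the looser rule 15 were lower (22.3%) and 2 higher (23%). ACAT2 was at 13.55 and 11.58 FPKM with HCl against 37.91 and 35.69 (-1.52 ± 0.15, adjusted p = 9.28e-08), and LSS at 12.38 and 11.70 against 27.55 and 25.32 (-1.11 ± 0.10, adjusted p = 3.95e-08). MVK, FADS2, IDI1 and FDPS, which makes farnesyl diphosphate, fell by between 1.01 and 1.06 on the log2 scale. FADS2 missed the threshold of size without NaHCO3 day 3 replicate 1 (-0.97), and IDI1 without HCl day 3 replicate 2 (-0.93) or NaHCO3 day 3 replicate 2 (-0.98). FDPS missed it without HCl day 3 replicate 1 (-0.98) or NaHCO3 day 3 replicate 1 (-0.995). It also missed it with DESeq2 and with DESeq2 size factors (-0.998 each), and the number called was 5 with DESeq2. On day 5 STARD4, DHCR7 and INSIG1 rose in HCl relative to NaHCO3, 3 of 28 where 12% of all genes rose and 11.1% fell. Whether HCl against NaHCO3 differed between days was not tested. STARD4 was at 11.00 and 12.65 FPKM against 2.84 and 2.30 (2.21 ± 0.18, adjusted p = 5.51e-09) and DHCR7 at 37.06 and 38.36 against 11.44 and 12.30 (1.67 ± 0.10, adjusted p = 6.41e-11). Counting any size of change, 13 were higher (23.7%) and 5 lower (23.5%), a total of 18 that went to 11 without HCl day 5 replicate 2.

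On day 7 LSS, MVD and CYP51A1 fell and SC5D rose in HCl relative to NaHCO3, where 12.7% of all genes fell and 12.4% rose. LSS was at 7.04 and 7.62 FPKM against 27.49 and 23.34 (-1.87 ± 0.08, adjusted p = 1.48e-18). MVD was at 4.39 and 5.24 FPKM against 13.52 and 14.11 (-1.60 ± 0.08, adjusted p = 1.21e-16). CYP51A1, named after its values were seen, had a log2 fold change of -1.22 ± 0.15. Whatever their size of change, 19 were lower (29%) and 2 higher (30.8%), and 7 were called without NaHCO3 day 7 replicate 2. On day 11 MSMO1, MVD and FASN fell, 3 of 28 where 15.9% of all genes fell and 13.9% rose, with log2 fold changes of -1.73, -1.21 and -1.20. By the looser rule 18 were lower (31.4%) and 6 higher (31.1%) on day 11.

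SC5D and MSMO1, which both act after lanosterol, were set beside markers of the cell types in these cultures. On day 7 SC5D ran from 87.21 to 115.32 FPKM in the 6 libraries with HCl, IWP2, or IWP2 with NaHCO3 and 2-DG, whose 7 heart muscle markers summed to between 1008.75 and 6627.2 FPKM. In the 6 libraries of control, NaHCO3, and IWP2 with NaHCO3 it ran from 26.16 to 32.77 FPKM, with marker sums of 105.51 to 654.55. On day 11 SC5D ran from 49.61 to 71.2 FPKM in the first 3 treatments, with heart muscle sums of 4071 to 6544.67. It ran from 30.52 to 47.85 FPKM in the other 3, with sums of 88.08 to 871.01. None of the 7 heart muscle markers was at 0 in both libraries of any of these groups. Other lists separated the same treatments. The 5 fibroblast and matrix markers summed to between 265.33 and 462.48 FPKM on day 7 in HCl, IWP2 and 2-DG cultures and to between 2167.01 and 5673.73 in the other 3, and on day 11 to between 313.79 and 614.22 against 2909.11 and 6484.14. The liver and foregut sums given next separated them too, and the part of any of these cell types in the level of SC5D was not tested.

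MSMO1 on day 11 ran from 112.6 to 186.71 FPKM in control, NaHCO3, and IWP2 with NaHCO3, whose 8 liver and foregut markers summed to between 4051.08 and 5585.81 FPKM. In HCl, IWP2, and IWP2 with NaHCO3 and 2-DG it ran from 26.45 to 50.83 FPKM, with liver and foregut sums of 162.72 to 397.53. On day 7 MSMO1 overlapped between the same treatments, at 45.57 to 77.86 against 32.28 to 61.95 FPKM, where the marker sums did not, at 1082.33 to 1622.86 against 43.38 to 395.29. The markers of this list did not all move together. From day 7 to day 11 of the control HNF4A fell (log2 fold change -1.75, adjusted p = 1.29e-07 by edgeR). AFP, ALB, AHSG and TTR rose, and APOA1, APOA2 and FGB were not called. Again no marker of the list was at 0 in both libraries of a group on these days, and the part of liver and foregut, heart muscle or fibroblast and matrix cells in the level of MSMO1, or in the falls of the other genes on days 7 and 11, was not tested.

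**Figure D5:**
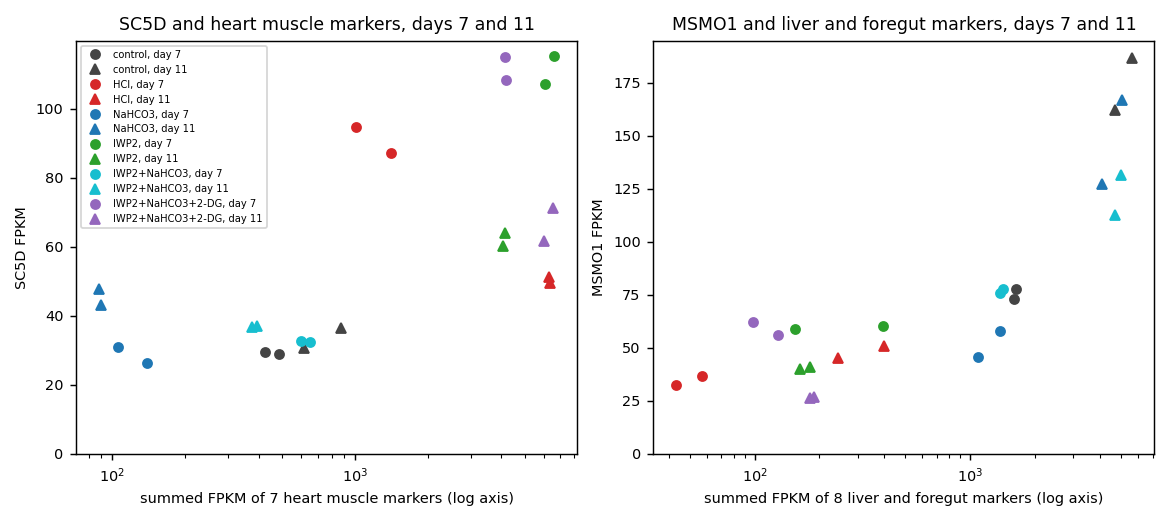
Left, FPKM of SC5D against the summed FPKM of 7 heart muscle markers (log axis); right, FPKM of MSMO1 against that of 8 liver and foregut markers (log axis); 1 point per library of days 7 (circles) and 11 (triangles), coloured by treatment. SC5D of day 7 ran from 87.21 to 115.32 FPKM with HCl, IWP2 and 2-DG, and MSMO1 of day 11 from 112.6 to 186.71 FPKM in control, NaHCO3, and IWP2 with NaHCO3.

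Of the 6 regulators and carriers, SREBF1, INSIG1 and STARD4 were called in 1 or more comparisons. SREBF2, INSIG2 and SCAP were not called in any of the 28 comparisons of treatments or days, although many of their differences passed the looser rule. SREBF2 was at 53.36 and 54.81 FPKM with HCl on day 11 and at 34.97 and 33.65 in control (0.74 ± 0.09, adjusted p = 9.8e-09), on a day when 20 of the 28 genes were lower with HCl. With NaHCO3 added to IWP2 SREBF2 was at 19.74 and 20.25 FPKM against 39.43 and 40.08 on day 11 (-0.92 ± 0.09, adjusted p = 1.7e-10), while MSMO1 rose. INSIG2, the second INSIG protein, ran from 5.23 to 10.8 FPKM in the libraries of days 7 and 11 and from 1.32 to 3.74 on days 3 and 5. These sets of days lie in different tables, so the difference was not tested. Time and a difference between the tables cannot be told apart there. Against undifferentiated cells INSIG2 was higher by 0.52 ± 0.11 on the log2 scale in the control of day 7, and by 0.87 ± 0.11 on day 11.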

How the data were processed

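RNA sequencing of 50 libraries in 25 groups of 2 was analysed. Gene counts were deposited by the authors as raw counts in 2 tables beside FPKM, which per the file headers are per exonic length. Adapters were trimmed with cutadapt 1.9.1, reads aligned with HISAT2 2.0.1 and counted with HTSeq 0.6.1 on GRCh37, per the submitters' processing notes. Whether counting used strand is not given in the sources used here, so overlapping genes are uncertain.

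The filter on low values kept genes that reached 1 FPKM in 2 or more libraries of a table, 17286 genes on days 3 and 5 and 18451 on days 0, 7 and 11, which held 99.6% of counts in each table. The quasi-likelihood test of edgeR 4.0.16 (R 4.3.3, limma 3.58.1, TMM scaling, 1 mean per group, all libraries of a table) was used, with Benjamini-Hochberg adjustment over all genes tested. The SE beside a log2 fold change was calculated back from that test, as its absolute value divided by the square root of the F statistic. It is an approximation and was not estimated separately. Interactions compared a treatment effect between days of a table. The fit was also run on simulated counts simpler than these data, with the same spread for every gene of a table. No conclusion is drawn from that run. Per-library values are given for called members with the largest change, at most 6 per comparison and with 5 FPKM or more in the higher group, and for at most 3 companion genes per comparison by the same rule; others given in full were chosen after their values were seen. Alternatives were DESeq2 1.42.0, its size factors in edgeR, no filter, a fit of only the days compared, a replicate block, and leaving out libraries. Promoter sequences are RefSeq, GRCh38.p14. Tables and plots were made with Python 3.11.15, pandas 2.3.3 and matplotlib 3.10.9. Members and lists were chosen with earlier results of these data known, and 1 gene of the pathway is not reported here.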

Additional observations from a re-analysis of the deposited data

Results flagged for a closer look

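The effect of a treatment differed between days, by an interaction test in edgeR with an adjusted p under 0.05 and a log2 difference of at least 1 in size, for members in 9 comparisons. For HCl against control 6 of 28 differed between days 5 and 3, where 8.35% of all genes were higher and 8.09% lower. The differences, day 5 minus day 3, were 1.15 for ACAT2, 1.21 for IDI1, -1.05 for TM7SF2, 1.11 for INSIG1, 1.76 for STARD4 and 1.07 for FADS1. That of TM7SF2 missed the threshold without control day 3 replicate 1 (-0.89), control day 5 replicate 1 (-0.97) or HCl day 5 replicate 2 (-0.91), and without the filter on low values (-0.98). Between days 11 and 7, 5 differed (7.12% and 9.96% of all genes), by 1.42 for TM7SF2, 1.06 for NSDHL, a sterol dehydrogenase, -1.02 for SC5D, -1.47 for SREBF1 and -1.27 for FADS1. SC5D missed the threshold without HCl day 7 replicate 1 (-0.97), without control day 11 replicate 2 (-0.86) and without the filter (-0.98), and NSDHL without control day 11 replicate 1 (0.98) and without HCl day 11 replicate 2 (0.91).

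For NaHCO3 against control 1 gene, HSD17B7, differed between days 5 and 3 (2.28% and 3.71% of all genes), by -1.03, and the number was 0 without either control library of day 3, without NaHCO3 day 3 replicate 1 and without NaHCO3 day 5 replicate 1, and 2 without NaHCO3 day 5 replicate 2. Between days 11 and 7, 2 differed (4.75% and 6.66%), by -1.48 for SREBF1 and -1.32 for FADS2. For IWP2 against control 4 differed between days 11 and 7 (1.27% and 4.52%), by -1.84 for MSMO1, -1.11 for SC5D, -1.01 for FADS1 and -1.55 for SCD. The number was 8 without control day 11 replicate 1 and 2 without control day 11 replicate 2. FADS1 missed the threshold without any of 4 libraries, at -0.97 to -0.98.

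For NaHCO3 added to IWP2, 1 gene differed between days 5 and 3 (2.76% and 2.78%), SC5D by -1.37. Between days 11 and 7, 3 differed (4.21% and 3.37%), by 1.35 for MSMO1, 1.14 for SC5D and -1.08 for FADS2. For 2-DG added to IWP2 with NaHCO3, 5 differed between days 5 and 3 (5.65% and 5.81%), by 1.16 for HMGCS1, 1.15 for SQLE, 1.00 for LSS, 1.6 for CYP51A1 and 1.21 for DHCR7. The number was 9 without 2-DG day 3 replicate 2, and LSS missed the threshold with DESeq2 (0.99) and when any of 4 libraries was left out (0.87 to 0.99). Between days 11 and 7, 1 differed (4.55% and 5.08%), MSMO1 by -1.87. That number was 3 without 2-DG day 7 replicate 1, and 2 without either IWP2 with NaHCO3 library of day 11 or 2-DG day 11 replicate 1.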

How the results depend on the processing

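Of 200 alternative values of the 38 counts of called members that left out no single library, 4 moved by more than 1.5 times, all for the control between days 3 and 5, from 1 to 2 with DESeq2, with DESeq2 size factors, without the filter on low values and without both 2-DG libraries of day 3, and the cause was not tested. With a replicate block 0 of the 38 counts moved by more than 1.5 times (HCl against control on day 11 stayed at 8), and no paired reading is made, since of 66 and 78 pairs of groups 2 and 0 had a correlation of same-numbered libraries over 0.1. Leaving out 1 library at a time moved 27 of 192 counts, and a group left with 1 library was assumed to vary like the others. The lowest and highest counts were as follows. For HCl against control, day 7 they were 3 and 9. For NaHCO3 against control, day 3 they were 0 and 3. For NaHCO3 against control, day 7 they were 0 and 1. For NaHCO3 against control, day 11 they were 1 and 3. For IWP2 against control, day 7 they were 1 and 2. For IWP2 with NaHCO3 against IWP2, day 3 they were 0 and 1. For IWP2 with NaHCO3 against IWP2, day 5 they were 0 and 1. For 2-DG added, day 3 they were 0 and 1. For HCl against NaHCO3, day 3 they were 3 and 5. For HCl against NaHCO3, day 7 they were 4 and 7. For control, day 5 against day 3 they were 1 and 3. For NaHCO3 against control, day 5 minus day 3 they were 0 and 2. For IWP2 against control, day 11 minus day 7 they were 2 and 8. For 2-DG added, day 5 minus day 3 they were 4 and 9. For 2-DG added, day 11 minus day 7 they were 1 and 3. Of 98 named gene results 22 lost their call under at least 1 alternative, in 53 of 998 values, by falling short of the threshold of size or, for TM7SF2 between days 5 and 3, of the adjusted p as well, and 0 changed sign. Groups of 2 limit the precision of every estimate.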

Other observations

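A list of 43 other genes of sterol and fatty acid metabolism, of which 41 were tested on days 3 and 5 and 42 on days 0, 7 and 11, was described by the same rule. With HCl against control 2 rose and 3 fell on day 5 (9.84% and 10.2% of all genes), 2 rose and 4 fell on day 7 (6.36% and 7.96%), and 3 rose and 5 fell on day 11 (8.37% and 12.7%). ABCA1, which exports cholesterol from cells, was at 2.67 and 2.17 FPKM with HCl on day 5 and at 16.15 and 16.54 in control (log2 fold change -2.72 ± 0.30, adjusted p = 3.21e-07 by edgeR). MYLIP, a ubiquitin ligase, was at 4.04 and 4.59 FPKM against 13.44 and 14.87 on that day (-1.67 ± 0.15, adjusted p = 2.90e-08), and at 6.08 and 6.16 against 21.58 and 21.71 on day 7 (-1.77 ± 0.08, adjusted p = 1.37e-17). NPC2, which moves cholesterol out of lysosomes, was at 223.27 and 208.23 FPKM with HCl on day 7 and at 73.84 and 77.13 in control (1.57 ± 0.11, adjusted p = 1.24e-10).

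LIPA, the lysosomal acid lipase, was at 3.65 and 3.23 FPKM with HCl on day 11 and at 24.80 and 26.58 in control (-2.82 ± 0.10, adjusted p = 6.09e-20). It was at 3.24 and 3.97 FPKM with 2-DG and at 27.95 and 29.55 in IWP2 with NaHCO3 (-2.98 ± 0.10, adjusted p = 5.63e-21). ACLY, which supplies cytosolic acetyl-CoA, was at 20.99 and 23.40 FPKM with HCl on day 11 against 55.43 and 53.30 (-1.21 ± 0.08, adjusted p = 6.04e-14). ACACB, the acetyl-CoA carboxylase found at mitochondria, was at 7.80 and 8.61 FPKM against 1.84 and 1.86 (2.23 ± 0.11, adjusted p = 3.72e-17). In the control of day 7 against undifferentiated cells 9 of the 42 fell and 3 rose (15.6% and 19.3% of all genes). SOAT1, which esterifies cholesterol for storage, went from 0.59 and 0.48 to 5.22 and 4.90 FPKM (3.06 ± 0.13, adjusted p = 2.40e-19).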
